A study of Rattus norvegicus with 6 samples.

Results

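Matrix metalloproteinases (MMPs) and their tissue inhibitors (TIMPs) were examined in CD11b+CD163+ cells of the rat brain after ischemia. The 10 genes were chosen by symbol and are Mmp2, Mmp7, Mmp8, Mmp9, Mmp12, Mmp14, Mmp19, Timp1, Timp2 and Timp3. All 10 were found among the 14217 genes that a probe set of the array names alone, through 17 probe sets. The cells, which the labels call perivascular and meningeal macrophages (PV) and which are also known as border-associated macrophages (BAMs), were sorted by flow cytometry from the right brain hemisphere of adult male Sprague-Dawley rats. Rats 63, 68 and 69 served as controls (n = 3). In rats 64, 65 and 66 (n = 3) a middle cerebral artery was occluded for 1 h, and the cells were taken after 16 h of reperfusion. Each rat gave 1 Affymetrix rat genome array, no control was paired with an ischemic rat, and no genetic change was made. The question addressed here is which enzymes and inhibitors of matrix breakdown changed in these cells, and by how much.

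MMPs are zinc-dependent endopeptidases that cut collagens, laminins, elastin, fibronectin and proteoglycans, and also free cytokines and chemokines from the cell surface or matrix. Most are secreted as inactive proenzymes and become active once the propeptide is removed, while MMP14 is held in the plasma membrane, where a complex with TIMP2 activates proMMP2. TIMPs block the active site of MMPs. After stroke, gelatinases and other MMPs are known to act on the basal lamina and tight junctions of brain vessels. TIMP3 is known to bind to the matrix and also inhibits several ADAM proteases.

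Values are RMA (robust multi-array average) values on the log2 scale, and a difference is ischemia minus control, so that 1 unit is a doubling. The words rose and fell are kept for genes with a Benjamini-Hochberg adjusted p under 0.01, by limma's moderated test over the 9928 genes above a low-signal filter. Background was taken from 29 genes of other tissues, and its upper edge, the 90th percentile of their values, was 7.43. Some of their values lay above this edge, and the highest mean of a single gene was 8.74. Values not far above the edge are therefore uncertain, and folds given below as at least a value are relative to it. Array medians lay between 7.82 and 7.90. The array of control 63 stood apart from the others. Its highest value was 13.88 against 14.98 to 15.03 elsewhere, and it had high levels of several vascular, astrocyte and oligodendrocyte genes, which are given below beside Timp3. Of 12 BAM markers 10 were measured, none within background, and 0 rose or fell (at an unadjusted p under 0.05, 0 were higher and 5 lower after ischemia). Cd163, the sorting antigen, was at 12.63 to 13.86 in controls and at 13.38 to 14.11 after ischemia. Of 11 monocyte markers 9 were measured and 8 rose, with a summed level of 13.03 to 13.77 in controls and 15.00 to 15.95 after ischemia, and the part of such cells in the results below was not tested.

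Among the 9 members that could be tested, Mmp14, Mmp7, Mmp12, Mmp9 and Timp1 rose, by 2.63 to 4.79 log2 units. No member fell, and 0 fell at an unadjusted p under 0.05. Mmp2, Mmp19, Timp2 and Timp3 did not pass the test, and Mmp8 did not exceed the low-signal filter on any array. These 5 rises were each over 2 log2 units. Over all genes tested, 16.8% rose, 5.99% fell and 1.63% rose by over 2 log2 units, and the median difference was 0.10 against 2.63 for the 9 members. A member tested only because it was high after ischemia had to differ. This holds for Mmp7 and Mmp9, with 3 arrays each above the filter. The counts and the median of 2.63 include both genes, so they are a description only. In 8 of the 9 tested members all 3 ischemic rats lay above all 3 controls, as did 35.7% of all genes tested, and Timp3 was the exception. More cells that carry a transcript and more transcript per cell cannot be told apart in such bulk samples.

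**Figure D1:**
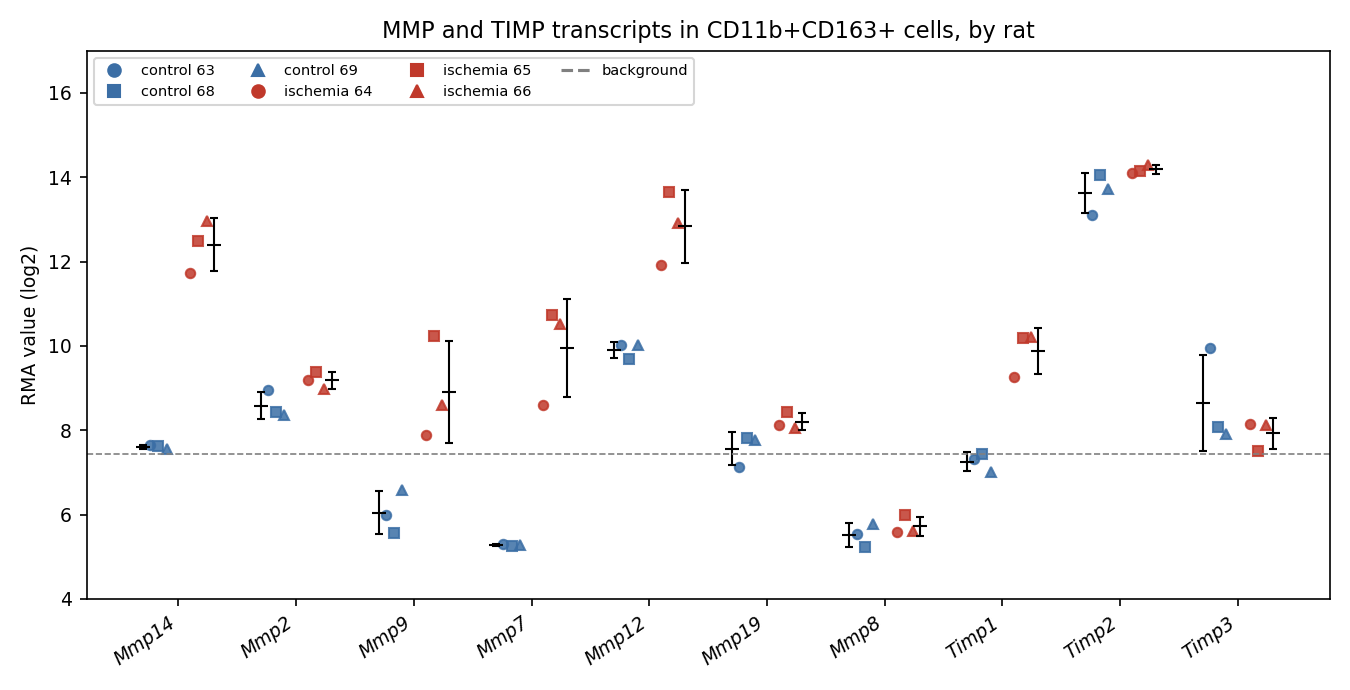
RMA values (log2, vertical axis) of the 10 genes in each control rat (blue) and each ischemic rat (red), with mean and SD (black, n = 3 rats) beside the points and the upper edge of background as a dashed line at 7.43. Mmp14, Mmp7, Mmp12, Mmp9 and Timp1 lie apart in both groups, Mmp8 lies within background in all 6 rats, and a single control rat, 63, is high for Timp3.

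The scaling of the arrays moved the balance of all calls. Of all genes called, 73.7% were rises. Centring the arrays on 45 ribosomal protein genes shifted the median difference from 0.10 to -0.35 and left 20.8% of calls as rises, and repeating the quantile normalization gave -0.02 and 53.1%. All 5 risen members were called as rises under both. With ribosomal centring the difference was 4.34 for Mmp14, 4.23 for Mmp7, 2.48 for Mmp12, 2.41 for Mmp9 and 2.18 for Timp1.

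Mmp14, which encodes the membrane-anchored collagenase MT1-MMP, was among the genes with the largest differences, ranking 12 of 9928, next to Mmp7 at 13. The order of these members is not settled, since the controls of Mmp7 lay within background and array weights gave 4.91 for Mmp14 and 5.25 for Mmp7. It was at 7.66, 7.62 and 7.55 in control rats 63, 68 and 69, close to the edge of background, and at 11.73, 12.49 and 12.97 in ischemic rats 64, 65 and 66. The groups were 4.08 log2 units apart at their nearest rats. The difference was 4.79 (SE 0.28, 95% interval 4.15 to 5.43), or 27.6-fold, with an adjusted p of 7.74e-05 by limma. A dimmer probe set of the same gene was at 7.03 to 7.47 in controls and at 8.82, 9.81 and 10.36 after ischemia. Its difference was smaller, at 2.36 (SE 0.35, adjusted p 0.00173 by limma over 14083 probe sets, of which 15% rose). Both probe sets of Mmp14 thus rose, and they disagreed on the size.

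Mmp2 encodes gelatinase A, the proenzyme that MMP14 and TIMP2 activate together. It was at 8.95, 8.43 and 8.37 in the controls and at 9.19, 9.39 and 8.98 after ischemia. The groups did not overlap, but the highest control, rat 63, lay 0.03 below the lowest ischemic rat. The difference was 0.60 (SE 0.19, 95% interval 0.16 to 1.04) and did not pass the test (adjusted p 0.0365 by limma). Array weights, which count outlying arrays less, gave 0.83 and an adjusted p of 0.00337, the lowest of a range over 17 alternatives that reached 0.706 with ribosomal centring, where the difference was 0.15. A second Mmp2 probe set gave no information, as it lay at 5.08 to 5.50 in all rats, within background.

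**Figure D2:**
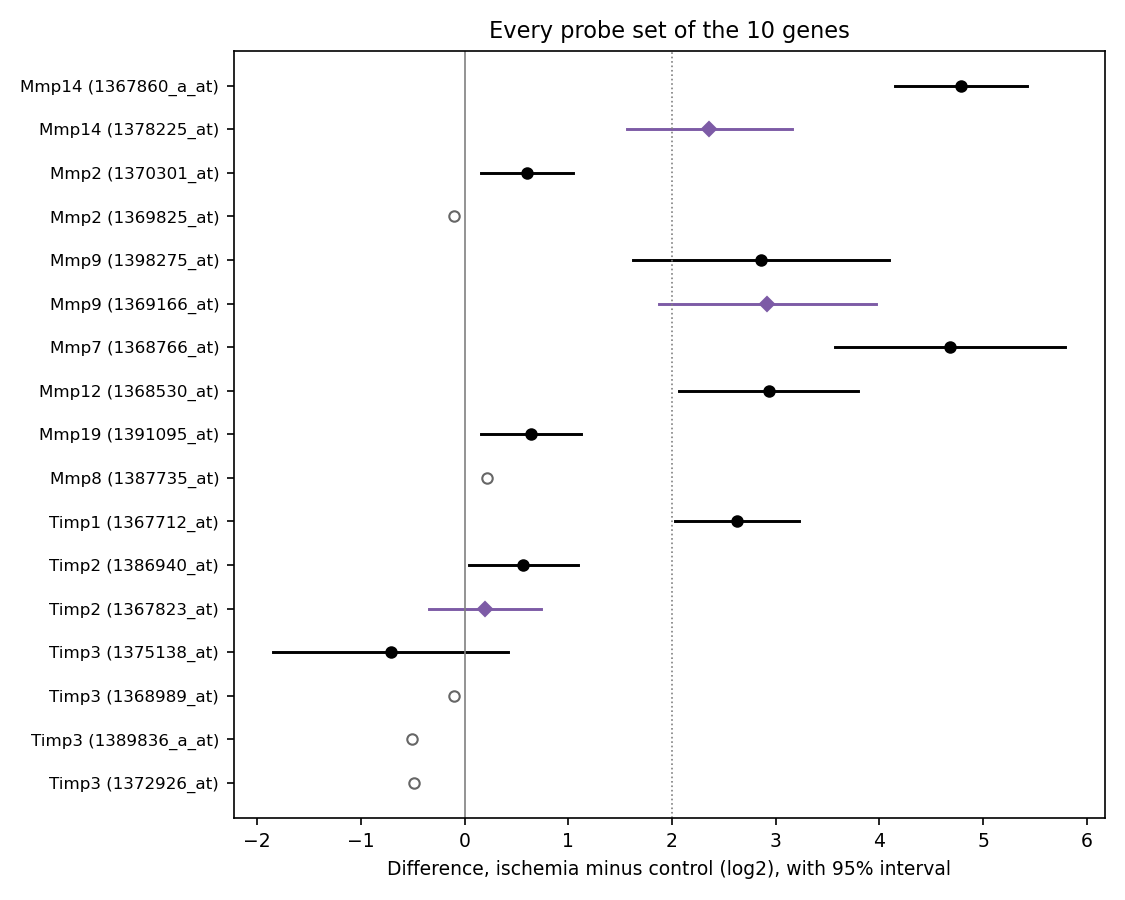
Difference between ischemic and control rats (log2, horizontal axis, n = 3 rats a group) for each of the 17 probe sets, with its 95% interval from limma's fit over all probe sets. Black circles are the probe sets used for each gene, violet diamonds are further probe sets, hollow circles without an interval are probe sets below the low-signal filter, and the dotted line marks a difference of 2. The intervals of Mmp14, Mmp7, Mmp12, Mmp9 and Timp1 lie above 0 throughout. Those of Mmp19 and of the probe sets used for Mmp2 and Timp2 also lie above 0, though these genes did not pass the adjusted test. The intervals of Timp3 and of the second Timp2 probe set include 0.

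Mmp7 and Mmp12 encode matrilysin, a small MMP that cleaves proteoglycans and activates other proMMPs, and macrophage elastase, a product typical of macrophages. Mmp7 was at 5.29, 5.25 and 5.28 in the controls, all within background, and at 8.61, 10.74 and 10.51 in ischemic rats 64, 65 and 66. It was thus measured in ischemic rats only. The difference was 4.68 (SE 0.49, adjusted p 0.000543 by limma), and since the control values are background, the ischemic mean set against the edge of background gives a change of at least 5.75-fold. Mmp12 was well above background in every rat, at 10.01, 9.68 and 10.02 in the controls and at 11.93, 13.66 and 12.93 after ischemia. The difference was 2.93 (SE 0.38, 95% interval 2.06 to 3.80), or 7.63-fold, with an adjusted p of 0.00113 by limma. For both genes the 3 controls lay close together and the ischemic rats spread over 1.73 to 2.13 log2 units, with rat 64 lowest and rat 65 highest.

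Mmp7 and Mmp12 lie in a cluster of MMP genes on chromosome 8 of the rat. RefSeq (GRCr8) orders its 10 genes as Mmp13, Mmp12, Mmp1b, Mmp3, Mmp1, Mmp10, Mmp8, Mmp27, Mmp20 and Mmp7. Of these, 6 were measured. The genes at the ends of the cluster were the ones with higher values after ischemia. Mmp13, a collagenase and no member of the list, was at 5.13, 5.26 and 5.06 in the controls and at 6.99, 9.22 and 8.08 after ischemia. It exceeded the low-signal filter on 2 arrays only and was therefore not tested in the main fit. Without the filter, where 10.3% of genes rose and 3.07% fell, its difference was 2.95 and its adjusted p 0.00599. Between them, the stromelysin Mmp3 was at 4.86 to 4.98, the stromelysin Mmp10 at 5.73 to 5.92 and Mmp8 at 5.22 to 5.98 over all 6 rats, all within background.

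The promoters of 3 genes of the cluster are shown because Mmp7 and Mmp12 were higher after ischemia and Mmp8, which lies between them, was within background. They are from RefSeq (GRCr8), run from 250 bases before to 50 bases after the start of the gene on its plus strand, and carry in capitals the matches to TGANTCA, the motif of AP-1 (FOS and JUN dimers).
Mmp7, chr8:13132793-13133092: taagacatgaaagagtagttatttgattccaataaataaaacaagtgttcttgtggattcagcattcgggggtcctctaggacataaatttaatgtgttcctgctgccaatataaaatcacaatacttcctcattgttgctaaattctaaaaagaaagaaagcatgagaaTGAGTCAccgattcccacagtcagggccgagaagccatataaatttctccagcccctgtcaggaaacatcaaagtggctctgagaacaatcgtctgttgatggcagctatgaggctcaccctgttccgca
Mmp12, chr8:12866402-12866701: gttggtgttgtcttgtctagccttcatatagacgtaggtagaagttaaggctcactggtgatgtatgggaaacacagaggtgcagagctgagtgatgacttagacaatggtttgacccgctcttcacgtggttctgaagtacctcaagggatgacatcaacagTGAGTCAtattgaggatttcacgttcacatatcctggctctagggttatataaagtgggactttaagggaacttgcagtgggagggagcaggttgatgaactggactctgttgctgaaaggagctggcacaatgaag
Mmp8, chr8:13008640-13008939: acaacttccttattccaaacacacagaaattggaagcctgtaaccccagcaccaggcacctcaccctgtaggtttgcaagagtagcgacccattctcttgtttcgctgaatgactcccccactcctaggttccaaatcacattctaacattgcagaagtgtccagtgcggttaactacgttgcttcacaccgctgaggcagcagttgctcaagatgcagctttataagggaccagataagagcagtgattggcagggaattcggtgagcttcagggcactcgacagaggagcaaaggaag
Mmp7 and Mmp12 each hold TGAGTCA once, starting 80 and 87 bases before the gene's start, and Mmp8 holds none. The motif occurs in 7.33% of 33469 RefSeq promoters of this length. The letters TATAAA occur in the printed sense 43 and 140 bases before the start of Mmp7 and 39 bases before that of Mmp12, and on the opposite strand of Mmp8, against 14.2% of all promoters on either strand. The ETS motif AGGAAG, found in 34.5% of promoters, has 1 match in Mmp7, 2 in Mmp8 and 0 in Mmp12. The hypoxia element ACGTG, found in 19.3%, has 3 matches in Mmp12, of which a pair overlaps as CACGTG, and 0 in the other two. All 4 motifs were searched on both strands. These matches describe the letters of the windows and were not tested for binding. Promoters were matched for 6 of the 10 members, and those of Timp1, Timp2 and Timp3 hold no AP-1 match.

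Mmp9 encodes gelatinase B, which macrophages make and which granulocytes store in their granules. It was at 5.99, 5.57 and 6.58 in control rats 63, 68 and 69, within background, and at 7.89, 10.24 and 8.59 in ischemic rats 64, 65 and 66. Rat 65 was at least 1.65 log2 units above the other ischemic rats. The difference was 2.86 (SE 0.54, 95% interval 1.61 to 4.11, adjusted p 0.00474 by limma), and the ischemic mean lay at least 2.78-fold above the controls when these are set at the edge of background. A second probe set was at 5.60 to 6.56 in controls and 7.85 to 9.76 after ischemia, with a difference of 2.92 (adjusted p 0.00218 by limma). The rise of Mmp9 was the least secure of the 5. It passed in 11 of 18 alternatives, with adjusted p-values from 0.00142 to 0.0623, and was not past without control 63 (2.83, 0.0215), control 68 (2.62, 0.0231), control 69 (3.12, 0.0103) or ischemic rat 66 (3.02, 0.0112).

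Mmp8 encodes neutrophil collagenase. It was at 5.54, 5.22 and 5.78 in the controls and at 5.58, 5.98 and 5.61 after ischemia. The groups overlapped within background, so that a change in Mmp8 was not detectable on these arrays. Without the low-signal filter its difference was 0.21 and its adjusted p 0.421 by limma.

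In the paper's purity check by flow cytometry, CD163+ cells sorted from ischemic brain held a small share of granulocytes. Granulocyte genes are therefore given beside Mmp9. Of 18 such markers, 9 were measured, and Mpo and Elane, which define the primary granules, were not among them. The level summed over them lay between 10.19 and 10.56 in controls and between 10.86 and 11.74 after ischemia. Of 6 tested, 4 were higher and 0 lower at an unadjusted p under 0.05. Lcn2 and S100a8, 2 of the 6, rose, where 16.8% of all genes tested rose and 5.99% fell. Both had control values within background and passed the low-signal filter only through the ischemic arrays, so they had to differ and their difference is only a bound. Lcn2, a granule protein that binds MMP9 and that macrophages also make, was at 4.90 to 5.68 in controls and at 7.82, 9.37 and 8.41 after ischemia (3.34, adjusted p 0.000713 by limma, at least 2.14-fold over the edge of background). S100a8 was at 4.80 to 5.89 and then at 8.24, 8.34 and 9.44 (3.36, adjusted p 0.000621, at least 2.37-fold). S100a9 was higher by 2.19 (adjusted p 0.0119) and Csf3r by 0.93 (adjusted p 0.0113). Cxcr2, a chemokine receptor of neutrophils, was at 8.69 to 9.63 in controls and at 8.28 to 9.05 after ischemia (-0.50, adjusted p 0.179). Mmp9 and Lcn2 were both highest in rat 65, while S100a8 and S100a9 were highest in rat 66. The part of granulocytes in the Mmp9 value was not tested.

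**Figure D3:**
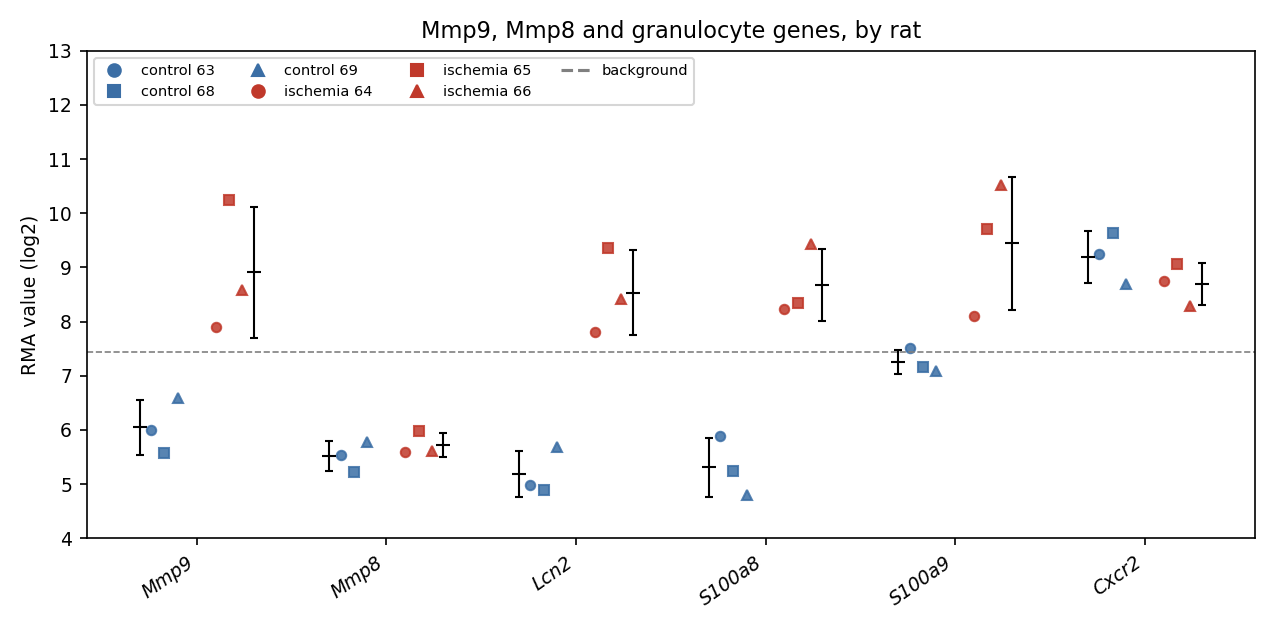
RMA values (log2, vertical axis) of Mmp9, Mmp8 and 4 granulocyte genes in each control rat (blue) and ischemic rat (red), with mean and SD (n = 3) and the edge of background (dashed, 7.43). Mmp9, Lcn2, S100a8 and S100a9 are higher in all ischemic rats, Mmp8 stays within background and the groups overlap for Cxcr2.

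Mmp19, a secreted MMP that cleaves basement membrane proteins, was at 7.13, 7.81 and 7.76 in the controls and at 8.13, 8.44 and 8.05 after ischemia. Control 63 lay within background and was the lowest. All ischemic rats were above all controls, yet the difference of 0.64 (SE 0.21, 95% interval 0.16 to 1.12) did not pass the test (adjusted p 0.0396 by limma). Nor was it past in any of 17 alternatives, where it ranged from 0.19 with ribosomal centring to 0.76, and it was 0.42 without control 63.

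Among the inhibitors only Timp1 rose. Timp1, an inducible inhibitor that binds proMMP9, was at 7.33, 7.43 and 7.01 in the controls and at 9.26, 10.18 and 10.21 after ischemia. The controls lay within background, with control 68 just under its edge. The difference was 2.63 (SE 0.26, 95% interval 2.02 to 3.23, adjusted p 0.000467 by limma), and the ischemic mean lay at least 5.46-fold above the edge of background. Timp2, the constitutive inhibitor, was high in every rat, at 13.10, 14.05 and 13.72 in the controls and at 14.11, 14.16 and 14.30 after ischemia. Control 63 was lowest, on an array whose highest value was 13.88, against 14.98 to 15.03 on the others. Control 68 lay 0.06 below the lowest ischemic rat. The difference was 0.57 (SE 0.23, 95% interval 0.04 to 1.09, adjusted p 0.08 by limma), and on a second probe set, at 10.39 to 11.23 in all rats, 0.20 (95% interval -0.35 to 0.74, adjusted p 0.534). Without control 63 the Timp2 difference was 0.31 (adjusted p 0.15), and with ribosomal centring 0.11 (adjusted p 0.678).

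Timp3, the matrix-bound inhibitor, was at 9.95, 8.07 and 7.90 in control rats 63, 68 and 69 and at 8.14, 7.51 and 8.13 after ischemia. Control 63 alone was high, and the other rats of both groups overlapped. The difference was -0.71 (SE 0.50, 95% interval -1.86 to 0.43, adjusted p 0.28 by limma), and -0.06 without control 63 (adjusted p 0.853), the highest p of 16 alternatives that began at 0.0952 with ribosomal centring (-1.16). All 4 probe sets of Timp3 were highest in control 63. In the same array, of 10 endothelial markers measured 6 were at their highest, and 6 of 10 mural, 7 of 8 astrocyte and 7 of 7 oligodendrocyte markers were so too. The 6 that lay over 2 log2 units above every other rat were the endothelial genes Cldn5 at 10.52, Slco1c1 at 10.48, Kdr at 9.39 and Emcn at 8.58, and the mural cell genes Rgs5 at 10.13 and Myh11 at 9.83. The endothelial markers Flt1 and Tie1 were highest in rat 65, Esam in control 68, and the mural markers Pdgfrb and Cspg4 were not highest in control 63. Of 11 endothelial markers 10 were measured, with a summed level of 13.38 in control 63, 11.95 and 12.06 in the other controls and 11.99 to 12.37 after ischemia, and 0 rose or fell (0 higher and 1 lower at an unadjusted p under 0.05). The summed level of 10 mural markers was 11.58 in control 63 and 10.12 to 10.59 elsewhere. For 8 astrocyte markers it was 12.68 in control 63 and 10.91 to 12.18 elsewhere. For 7 oligodendrocyte markers it was 14.39 in control 63, 13.86 and 13.24 in the other controls and 11.95 to 12.69 after ischemia. Their part in the Timp3 value was not tested.

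**Figure D4:**
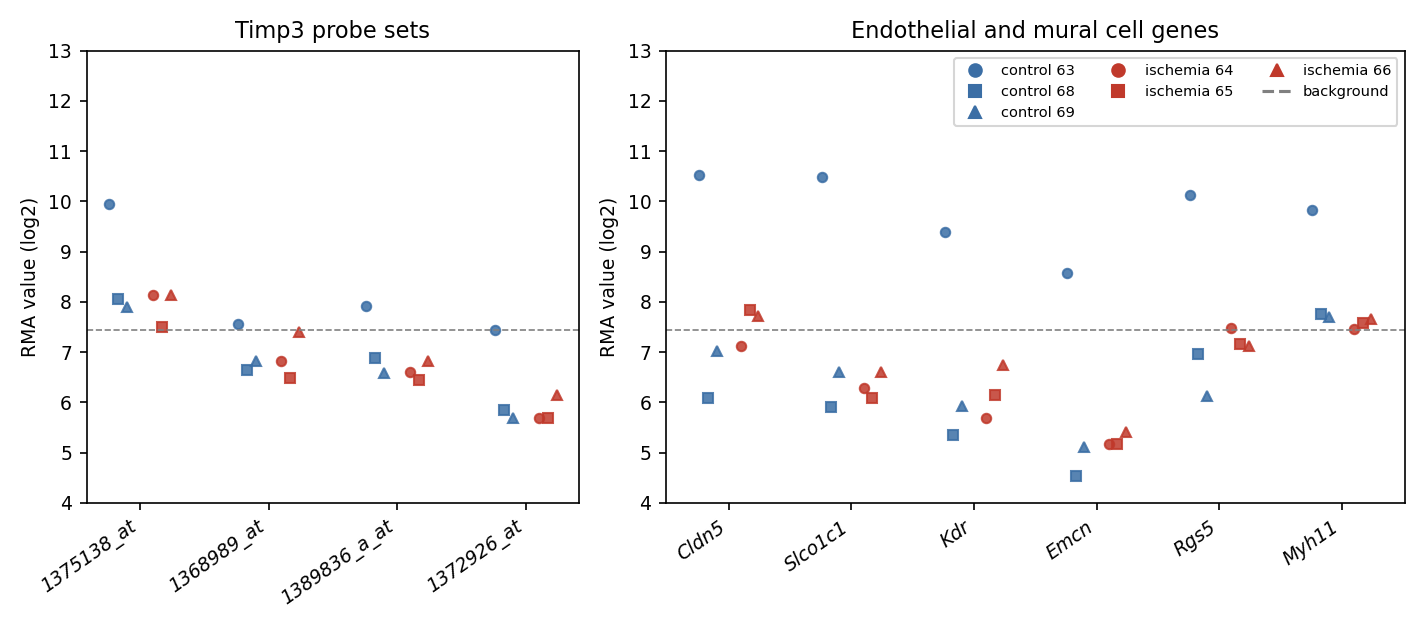
RMA values (log2, vertical axes) of the 4 Timp3 probe sets (left) and of the 4 endothelial and 2 mural cell genes that were over 2 log2 units above every other rat in control 63 (right) in each control rat (blue) and ischemic rat (red), with the edge of background (dashed, 7.43). Control 63 (blue circle) is the highest rat for every Timp3 probe set and every gene shown, with 9.95 for the first probe set and 10.52 for Cldn5.

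Enzymes were then set against the inhibitors known to bind them, as the difference between their log2 values in each rat. Only its change between groups can be read, since levels of unlike probe sets cannot be compared. There were 4 such pairs, and the p-values are two-sided, from exact permutation of the group labels, which with 3 rats a group cannot give less than 0.1. Mmp14 minus Timp2 lay between -6.43 and -5.44 in controls and between -2.37 and -1.33 after ischemia, a change of 4.22 (SE 0.43, exact permutation p 0.1, 0.2 adjusted over the 4 pairs). Mmp14 minus Timp3 was -2.29 to -0.35 and then 3.59 to 4.98, a change of 5.50 (SE 0.77, exact permutation p 0.1, 0.2 adjusted). Without control 63, the rat high for Timp3 and low for Timp2, this change was 4.87, and that of Mmp14 minus Timp2 was 4.51. With the mean of all probe sets the change of Mmp14 minus Timp3 was 4.025, and that of Mmp14 minus Timp2 was 3.19. In both pairs the groups did not overlap. Mmp2 minus Timp2 changed by 0.04 (SE 0.48, exact permutation p 0.9, 0.9 adjusted), the groups overlapped, and an SE of this size leaves room for unequal changes in either direction. For Mmp9 minus Timp1, both genes lay within background in all 3 controls, so that a change of this pair could not be read.

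Ischemic rats differed among themselves in the 5 risen members. Rat 64 was lowest for all 5, rat 65 was highest for Mmp7, Mmp9 and Mmp12, and rat 66 was highest for Mmp14 and Timp1. The median rise of these 5 genes over the control means was 2.02 in rat 64, 4.19 in rat 65 and 3.02 in rat 66. Rat 64 was also the lowest ischemic rat for 76.6% of the 1664 genes that rose, so a low value there was not particular to MMPs. Over the 162 genes that rose by over 2 log2 units, the median rise was 2.16, 2.78 and 3.05 in rats 64, 65 and 66.

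Few other genes of the family exceeded the low-signal filter. Of 15 further MMPs and Timp4, 11 genes were measured, 7 of them within background in all rats, and 3 were tested. None was past the test, and 0 had an unadjusted p under 0.05. Mmp24, a membrane-type MMP of the nervous system, was at 8.27 to 8.95 in controls and 8.23 to 8.36 after ischemia (-0.34, adjusted p 0.168 by limma). Mmp23 was at 7.84 to 7.93 and at 7.75 to 8.01 (0.01, adjusted p 0.945), and Mmp17 at 7.12 to 7.60 and at 7.15 to 7.37 (-0.04, adjusted p 0.858). Mmp28, named here after its values were seen, was at 6.81 to 7.26 in controls and 6.10 to 6.11 after ischemia, all within background (-0.95, adjusted p 0.00352 without the low-signal filter).

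Other genes of matrix remodelling were drawn from 5 lists of 81 genes, of which 51 were tested. Of these 14 rose and 4 fell, where 16.8% of all genes tested rose and 5.99% fell. With the arrays centred on ribosomal protein genes 8 rose and 9 fell, where 3.81% of all genes rose and 14.5% fell. Among 12 tested genes that activate or regulate MMPs, 5 rose and 0 fell (1 was lower at an unadjusted p under 0.05). They were Lcn2, with the limits given above, Plaur, the urokinase receptor that focuses plasmin formation on the cell surface (8.44 to 9.43 in controls, 11.31 to 12.61 after ischemia, 3.03, adjusted p 0.000936 by limma), Cd44, a hyaluronan receptor that docks MMP9 (2.36, adjusted p 0.00116), Lrp1, a scavenger receptor that clears MMPs (2.32, adjusted p 0.000578), and Furin, the convertase that removes the propeptide of MMP14 (0.95, adjusted p 0.00174). Furin was not past with ribosomal centring (0.49, adjusted p 0.0885). Plau, urokinase itself, was at 11.08 to 12.37 in controls and 11.79 to 12.47 after ischemia (0.50, adjusted p 0.28), and Cd151, a tetraspanin, differed by 0.25 (adjusted p 0.132).

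Of 10 tested ADAM and ADAMTS proteases, 2 rose and 0 fell (2 were lower at an unadjusted p under 0.05). This count of rises is near the share over all genes tested, of which 16.8% rose and 5.99% fell. Adam8, an ADAM of myeloid cells, was at 10.68 to 11.71 in controls and 12.16 to 12.42 after ischemia (1.23, adjusted p 0.00693 by limma). Adam15 was at 8.85 to 9.46 and at 10.26 to 10.43 (1.14, adjusted p 0.00214). Neither was past with ribosomal centring, where Adam8 had 0.78 and Adam15 0.69, and Adam8 was not past with repeated quantile normalization either (adjusted p 0.0326). Adam17, the sheddase of TNF that TIMP3 inhibits, was at 11.59 to 12.06 in controls and 11.69 to 12.04 after ischemia (-0.0032, SE 0.17, adjusted p 0.989), and Adam19 differed by -0.33 (adjusted p 0.18).

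Of 9 tested cathepsins and glycosidases that break down matrix, 5 rose and 0 fell (1 was lower at an unadjusted p under 0.05). The shares that rose and fell over all genes tested were 16.8% and 5.99%. Ctsk, the collagen- and elastin-cleaving cathepsin K, was at 8.89, 9.17 and 8.78 in the controls and at 11.99, 12.27 and 11.52 after ischemia. Its difference of 2.98 (SE 0.21, adjusted p 0.000135 by limma) stood apart from those of Ctsd, cathepsin D (1.46, adjusted p 0.00186), Hyal2, a hyaluronidase (1.18, adjusted p 0.00188), and Ctsz, cathepsin Z (1.08, adjusted p 0.00109). Ctsl, cathepsin L, rose as well (1.04, adjusted p 0.00385 by limma). Hyal2, Ctsz and Ctsl were not past with ribosomal centring. Ctss and Ctsb, cathepsins S and B, were at 13.51 to 14.80 in all rats and did not pass the test (0.28 and 0.39, adjusted p 0.432 and 0.339). Control 63 alone was low, at 13.73 for Ctss and 13.51 for Ctsb, on an array whose highest value was 13.88. The other rats were at 14.54 to 14.80, where the highest values of their arrays were 14.98 to 15.03.

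Matrix and junction proteins that MMPs cut moved both ways. Of 17 tested, 2 rose and 4 fell, where 16.8% of all genes tested rose and 5.99% fell. Vcan, the proteoglycan versican, was at 6.67 to 6.83 in controls, within background, and at 12.74, 13.65 and 14.11 after ischemia (6.74, adjusted p 4.22e-05 by limma, at least 67-fold). Fn1, fibronectin, was at 8.57, 7.59 and 6.39 and then at 12.79, 13.93 and 13.72 (5.96, adjusted p 0.000316). Both are also on the list of monocyte markers. Lamb2, the laminin beta-2 chain of vascular basement membranes, was at 10.29 to 11.06 in controls and 8.51 to 9.48 after ischemia (-1.60, adjusted p 0.00366), and Col3a1, a fibrillar collagen of fibroblasts, at 7.63 to 8.70 and at 6.62 to 7.15 (-1.30, adjusted p 0.00784). Col3a1 was not past with repeated quantile normalization (adjusted p 0.0117). Nid2 and Agrn also fell. Vcan passed the low-signal filter only through the ischemic arrays, and Col3a1 and Nid2 only through the controls, so these genes had to differ. Of 6 tested fibroblast markers 1, Fbln1, rose and 1, Col3a1, fell. At an unadjusted p under 0.05, 1 was higher and 3 lower, and the median difference was -0.98. The level summed over 10 markers lay between 10.71 and 11.66 in controls and between 10.95 and 11.44 after ischemia. This sum holds Fbln1, at 6.68 to 6.84 in controls, within background, and at 9.29 to 10.50 after ischemia. Fbln1 passed the low-signal filter only through the ischemic arrays, so it too had to differ. Its difference is only a bound, of at least 6.05-fold. Col1a1 (-0.95), Col1a2 (-1.01) and Dcn (-1.13) were lower without passing the test. The part of fibroblasts in the fall of Col3a1 was not tested. Over the 51 tested genes of the 5 lists, the count of falls changed when single rats were left out. It was 4 with all rats, 1 without control 63, 1 without control 68 and 4 without control 69. It was 2 without ischemic rat 64, 0 without rat 65 and 0 without rat 66. Over all genes tested, 595 fell with all rats. Leaving out rats 63, 68, 69, 64, 65 and 66 in turn gave 379, 189, 262, 816, 166 and 227 falls. Of the 51 genes, 14 rose with all rats and 9 without rat 65. Ocln, occludin, a tight junction protein that MMPs cut, was at 9.72 to 10.12 in controls and at 9.40 to 9.73 after ischemia (-0.38, adjusted p 0.0919).

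**Figure D5:**
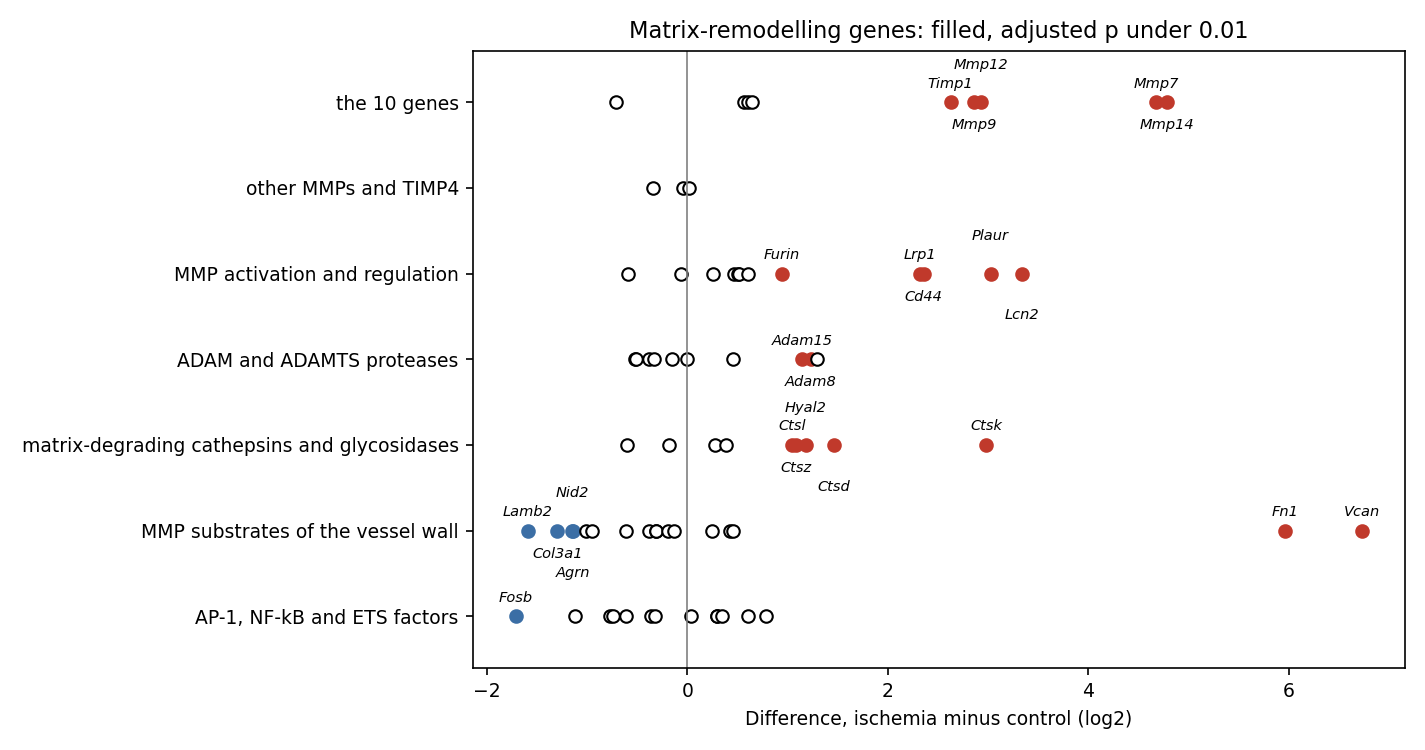
Difference between ischemic and control rats (log2, horizontal axis, n = 3 rats a group) of each tested gene of 7 lists, the 10 MMPs and TIMPs at the top. Filled circles, labelled, are past an adjusted p under 0.01 (red for a rise, blue for a fall) and hollow circles are not. Rises of the MMP activation list reach 3.34 for Lcn2, and the widest range is that of MMP substrates, from -1.60 for Lamb2 to 6.74 for Vcan.

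Transcription factors whose motifs are typical of MMP promoters were measured on the same arrays. Of 13 tested AP-1, NF-kB and ETS factors, 0 rose and 1 fell, where 16.8% of all genes tested rose and 5.99% fell. At an unadjusted p under 0.05, 2 were higher and 5 lower. Fosb, an AP-1 subunit, was at 13.24, 13.26 and 13.90 in the controls and at 12.26, 11.47 and 11.52 after ischemia (-1.71, adjusted p 0.00201 by limma). With ribosomal centring, where 14.5% of all genes tested fell, Fos, Jun, Jund and Atf3 fell as well, by 1.06 to 1.57 log2 units. The 2 factors of highest mean that did not pass, Fos and Jun, were at 13.05 to 14.52 and at 12.49 to 14.60 over all rats.

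The genes whose pattern over the 6 arrays was most like that of the 3 members with the largest differences were found by the mean absolute difference of their values, after each gene's mean was subtracted. Nearest to Mmp14 were Anpep, a cell surface aminopeptidase, at 0.29 log2 units, Bcat1, an enzyme of branched-chain amino acid breakdown, at 0.33, and Upp1, uridine phosphorylase, at 0.34. Nearest to Mmp7 were Chi3l1, a secreted chitinase-like protein, at 0.23, Anpep at 0.26 and Upp1 at 0.34. Nearest to Mmp12 were Mthfd1l, a mitochondrial folate enzyme, at 0.21, Aqp9, a channel for water and glycerol, at 0.21, and Serpinb10, a serine protease inhibitor, at 0.26. Mmp14 and Mmp7 thus shared Anpep and Upp1 among their nearest genes. This likeness is over 6 arrays of 2 groups and holds the difference between the groups itself.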

How the data were processed

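RNA of CD11b+CD163+ cells sorted from 6 rats was amplified, labelled and hybridized to Affymetrix 3′ expression arrays. The authors made the values with RMA, that is, background correction, quantile normalization and a summary over the probes of a set, and the deposited values are log2 values for 31099 probe sets, used here as deposited. The submitters' processing notes name limma 3.18 and R 3.3.1. Probe sets were named from the platform's annotation: 20826 had a single symbol, 436 had several and 9780 had none. An array gives no read depth, and the number of rats limits the precision.

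Genes with several probe sets were read from the brightest, by its mean over all rats, and a gene was tested where its value was above 7.16 on at least 3 arrays. This level is the 40th percentile of all values, with the 57 control probe sets left out. The groups were compared in limma 3.58.1 (R 4.3.3) with a linear model and empirical Bayes moderation (lmFit, eBayes). Tests were two-sided, and p-values were adjusted by the Benjamini-Hochberg method over 9928 genes. Further probe sets come from a fit over 14083 probe sets, an alternative added after the data were seen. A gene whose controls all lay within background has only a bound, its ischemic mean over the edge of background.

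The members and lists were chosen with earlier results of these data known. Named genes are all members, from each list up to 4 genes past the test, by size of change, and up to 2 of highest mean among those not past it, over the lists of matrix genes and regulators, and the 3 nearest in pattern to each of 3 members. Marker genes of other cells, Mmp13, Mmp17, Mmp28, Furin, Ctsl, Nid2, Agrn, Jund and Atf3 were named outside this rule, after their values were seen. The fit was tested on simulated data with known changes. Alternatives covered the filter, the probe set, the scaling, the moderation and weights, the thresholds and leaving out each rat. Figures were drawn with matplotlib 3.10.9.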

Additional observations from a re-analysis of the deposited data

How the results depend on the processing

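The 5 risen members kept their direction under all alternatives run, none of which called a member as fallen. The log2 difference ranged from 3.57 to 5.12 for Mmp14 (2.36 on its second probe set), 4.23 to 5.35 for Mmp7, 2.48 to 3.48 for Mmp12, 2.18 to 2.94 for Timp1 and 2.19 to 3.60 for Mmp9. Without moderation of the variances no gene of the array passed (lowest adjusted p 0.0101), so 0 members and 0 and 0 other matrix genes rose and fell, and 5 members had an unadjusted p under 0.05. Leaving out 1 rat at a time gave 4 to 5 risen members, 9 to 16 risen and 0 to 4 fallen matrix genes. The matrix genes numbered 8 risen and 9 fallen with ribosomal protein centring, 7 fallen with array weights, 10 fallen at an adjusted p under 0.05, and 7 risen and 0 fallen when a log2 difference beyond 2 was also required. Mmp9 was not past without the low-signal filter (adjusted p 0.0115) or with robust moderation (0.0114). The change of Mmp2 minus Timp2 had no settled sign: it was -0.13 with the mean of all probe sets, and -0.25 to 0.48 without 1 rat. That of Mmp9 minus Timp1, whose controls are background in both genes and which is therefore not read, was 0.23, and -0.29 to 0.62 without 1 rat. The cause of these shifts was not tested. No paired analysis was possible because the rats of the 2 groups share no numbers.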
